A study of Homo sapiens with 24 samples.

Results

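The miR-301b-3p mimic was tested in T-47D breast cancer cells whose endogenous ESR1 gene, which encodes the estrogen receptor (ER), carried the Y537S mutation. The 4 samples of this comparison, out of 24 in the series, were chosen by their labels: Y537S clones 1 and 2, each transfected with the miR-301b mimic or with the mimic negative control. All 26364 genes of the count table were considered, and 15145 had enough counts to be tested. T-47D is an established line from a luminal, ER-positive mammary carcinoma, and the Y537S clones are heterozygous for the mutation. All cells had been kept in hormone-deprived medium before and during transfection with 10 nM of synthetic RNA and were collected after 24 h. The same mimic and control were given to 2 WT clones and to 2 clones with the ESR1 mutation D538G, and Y537S cells also received a miR-331-3p mimic. Other Y537S samples had a let-7f inhibitor or an inhibitor negative control, and they enter only the fit of all Y537S samples. Each condition had 1 poly-A library per clone, so the replicates are clonal cell lines. P-values of the main fits, which leave the clone out, measure the spread between these clones together with that across genes. Those of the paired fit given below do not, as its spread comes almost wholly from the trend across genes. The 4 libraries held 38998579 to 41430770 counts, and the 10 most counted genes took 4.39% to 4.81% of them. Exact permutation of 2 samples against 2 reaches no two-sided p lower than 0.333, and the P-values below rest on a spread estimated across genes.

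MicroRNAs guide Argonaute proteins to messenger RNAs, mostly through pairing of bases 2 to 8 of the miRNA, the seed, with sites in the 3′UTR. The bound messenger is translated less and loses its poly-A tail, which leads to its decay. A mimic is a double-stranded synthetic RNA that loads the miRNA strand into Argonaute. miR-301b-3p belongs to the miR-130/miR-301 family, whose members share 1 seed, and the miR-331-3p mimic has another. The mature sequences below are from RefSeq (GRCh38.p14), in lower case with the seed in capitals, and show what the family shares and where the comparison mimic differs. The reference holds 6 mature miRNAs with this seed, of which 4 are printed. It lacks the mature sequence of miR-130a-3p, so the 6 are not the whole family. Of those printed, miR-301a-3p is identical to miR-301b-3p at 21 of 23 positions.
hsa-miR-301b-3p: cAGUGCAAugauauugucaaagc
hsa-miR-301a-3p: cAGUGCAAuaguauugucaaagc
hsa-miR-130b-3p: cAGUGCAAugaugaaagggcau
hsa-miR-454-3p: uAGUGCAAuauugcuuauagggu
hsa-miR-331-3p: gCCCCUGGgccuauccuagaa

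A target site was sought as the reverse complement of the seed, TTGCACT, in the sense strand of the 3′UTR of 1 canonical transcript per gene (GENCODE v44 lifted to GRCh37). A 7-base match is called 7mer-m8, and one followed by A is called 8mer. The sites below, all in a 3′UTR, belong to genes that the results turn on. They are written 5′ to 3′ in windows of 22 bases that end with the match, which is in capitals.
HPRT1, chrX:133634272-133634293 (+), 178 bases after the stop codon: cctaaactgtttatTTGCACTA
TWF1, chr12:44188004-44188025 (-), 1377 bases after the stop codon: taactgacaataatgTTGCACT
DICER1, chr14:95555326-95555347 (-), 1502 bases after the stop codon: agctgtgggtcagtcTTGCACT
RAB5A, chr3:20026463-20026484 (+), 1161 bases after the stop codon: atcagttcagtataTTGCACTA
CDC42, chr1:22427350-22427371 (+), 9353 bases after the stop codon: ctcctttgtaaggtTTGCACTA
PIK3CB, chr3:138374167-138374188 (-), 56 bases after the stop codon: ttttcattttgcacTTGCACTA
ESR1, chr6:152423852-152423873 (+), 3765 bases after the stop codon: tatggcacttcaattTTGCACT
ESR1, chr6:152424303-152424324 (+), 4216 bases after the stop codon: acttgtaaacctcttTTGCACT
PRKD3, chr2:37478132-37478153 (-), 2181 bases after the stop codon: aagccatgaaattaaTTGCACT

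The miR-301b mimic altered 541 of 15145 genes (3.57%) in Y537S ER mutant cells at an adjusted P-value under 0.05 (edgeR quasi-likelihood test, Benjamini-Hochberg adjustment over all genes tested). Of these, 355 (2.34%) were down-regulated and 186 (1.23%) were up-regulated. All 541 moved the same way in both clones, with no overlap between mimic and control samples. A test of 2 samples against 2 largely picks genes of this kind, so this is no separate evidence of replication. A change of more than 1 on the log2 scale was seen for 56 of the down-regulated and 24 of the up-regulated genes. The mimic and the control were measured in the same clones, and with the clone as a block the test called 5819 genes (38.4%), of which 2788 (18.4%) were up-regulated and 3031 (20%) were down-regulated, among them all 541. This paired fit has 1 residual degree of freedom and takes its spread almost wholly from the trend across genes. Counts in gene lists are therefore given for both fits. Leaving out the control sample of clone 1 left 19 genes called, of clone 2 179, the mimic sample of clone 1 238 and of clone 2 296.

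The change also moved with base composition. The fold change rose with the GC content of the transcript by 0.19 in clone 1 and 0.25 in clone 2, in log2 units per 10 percentage points of GC. The median GC content was 39.6% in down-regulated genes, 60.2% in up-regulated genes and 48.8% in all genes tested. Slopes of the same direction were seen for this mimic in WT clones (0.19 and 0.23) and D538G clones (0.19 and 0.28), and for the miR-331 mimic in Y537S clones (0.33 and 0.28). After each library's trend with GC content was removed, 24 genes were called, 5 up and 19 down. Both together, the clone block and the GC correction, gave 4428 called genes (29.2%), 1891 up (12.5%) and 2537 down (16.8%), and these included 533 of the 541 in the same direction.

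**Figure D1:**
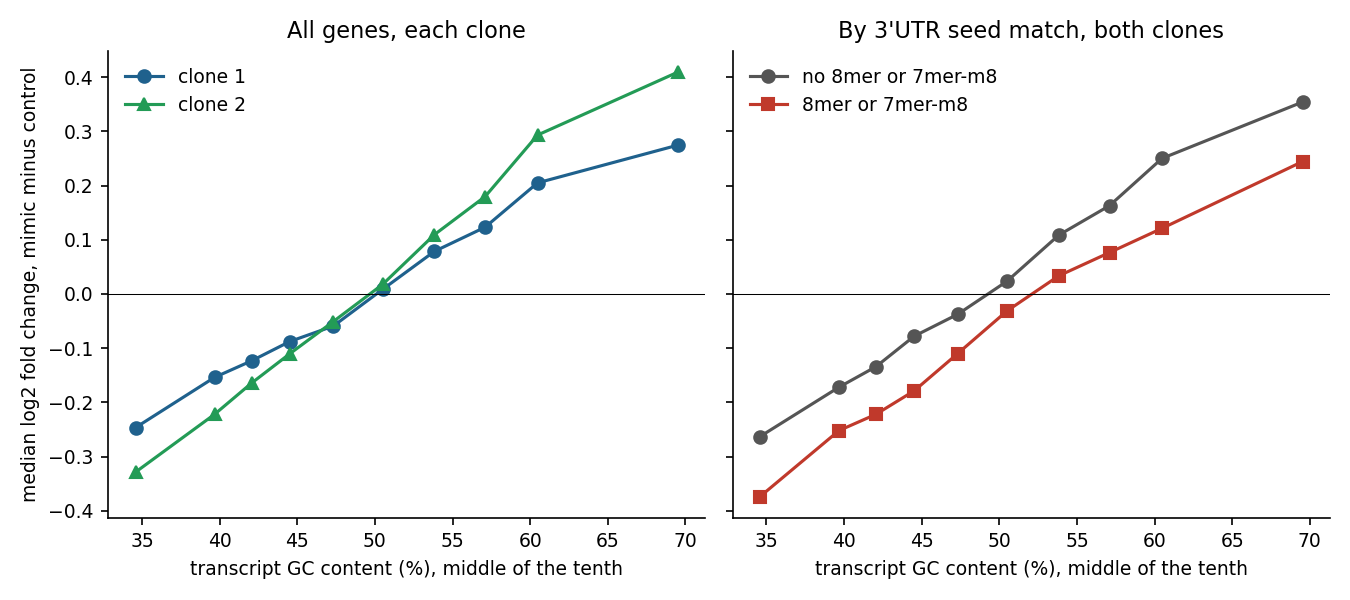
Median log2 fold change (mimic minus control) of genes in 10 bins of transcript GC content (x axis, middle of the bin, %), for each clone (left) and, over both clones, for genes with and without an 8mer or 7mer-m8 match (right). The medians climb with GC content in both clones, and genes with a match lie lower in 10 of 10 bins.

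The largest fall was that of HPRT1, which salvages purine bases. Its level was 26.2 and 24.3 CPM (counts scaled to the normalized library size) in control clones 1 and 2 and 5.76 and 7.56 CPM with the mimic. This was a fall by 1.92 on the log2 scale (SE 0.18; adjusted P = 0.0214, edgeR quasi-likelihood test). The 3′UTR of HPRT1 is 591 bases long and holds the single 8mer printed above. TWF1, which encodes the actin monomer-binding protein twinfilin, fell from 138 and 170 CPM to 34.7 and 47.7 CPM, which is -1.90 (SE 0.18) on the log2 scale. GMFB, a debranching factor of actin networks, fell from 137 and 140 CPM to 42.3 and 46.4 CPM (-1.65, SE 0.09). In both genes every mimic sample lay below every control sample by more than the clones differed from each other. The other 9 of the 12 largest falls ranged from -1.92 to -1.46 and were CHIC1, MMD, ENPP5, TMEM64, MREG, PDZD11, MYBL1, SDAD1 and GOLT1B. Adjusted P-values of the 12 lay between 0.0193 and 0.0289 (edgeR quasi-likelihood test). All but MMD and SDAD1 had at least 1 8mer or 7mer-m8 in the 3′UTR. With the miR-331 mimic against the same control samples, GMFB was at -1.62, MYBL1 at -1.44 and CHIC1 at -1.28 on the log2 scale. The rest of the 12 lay between -0.70 (ENPP5) and 0.41 (PDZD11). The direct difference (miR-301b minus miR-331) was -0.002 for GMFB, -0.02 for MYBL1 and -0.61 for CHIC1, and none of these passed the edgeR test. The falls of these genes were thus not particular to miR-301b.

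Among the 8 largest rises, PTPMT1, a mitochondrial phosphatase of cardiolipin synthesis, went from 29.0 and 39.2 CPM in the control to 107 and 101 CPM with the mimic. Its log2 fold change was 1.61 (SE 0.15; adjusted P = 0.0214, edgeR quasi-likelihood test). SRPR, the signal recognition particle receptor of the endoplasmic reticulum, went from 273 and 285 CPM to 637 and 593 CPM (1.14, SE 0.08). CALU, a calcium-binding protein of the same compartment, had a log2 fold change of 1.14 (SE 0.11), and DNMT3B, a de novo DNA methyltransferase, of 1.11 (SE 0.17). IGFBPL1 (1.33), SSPO (1.20, and 0.79 in the paired fit after GC correction), NTN1 (1.06) and ATP9A (1.05) completed the list, with adjusted P-values of the 8 between 0.0193 and 0.0498 (edgeR quasi-likelihood test). None of the 8 had an 8mer, 7mer-m8 or 7mer-A1 in the 3′UTR used, which SSPO lacked in the annotation. With the miR-331 mimic, measured against the same control samples, PTPMT1 had a log2 fold change of 1.98, SRPR of 1.36 and CALU of 1.00, and DNMT3B of -0.11.

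**Figure D2:**
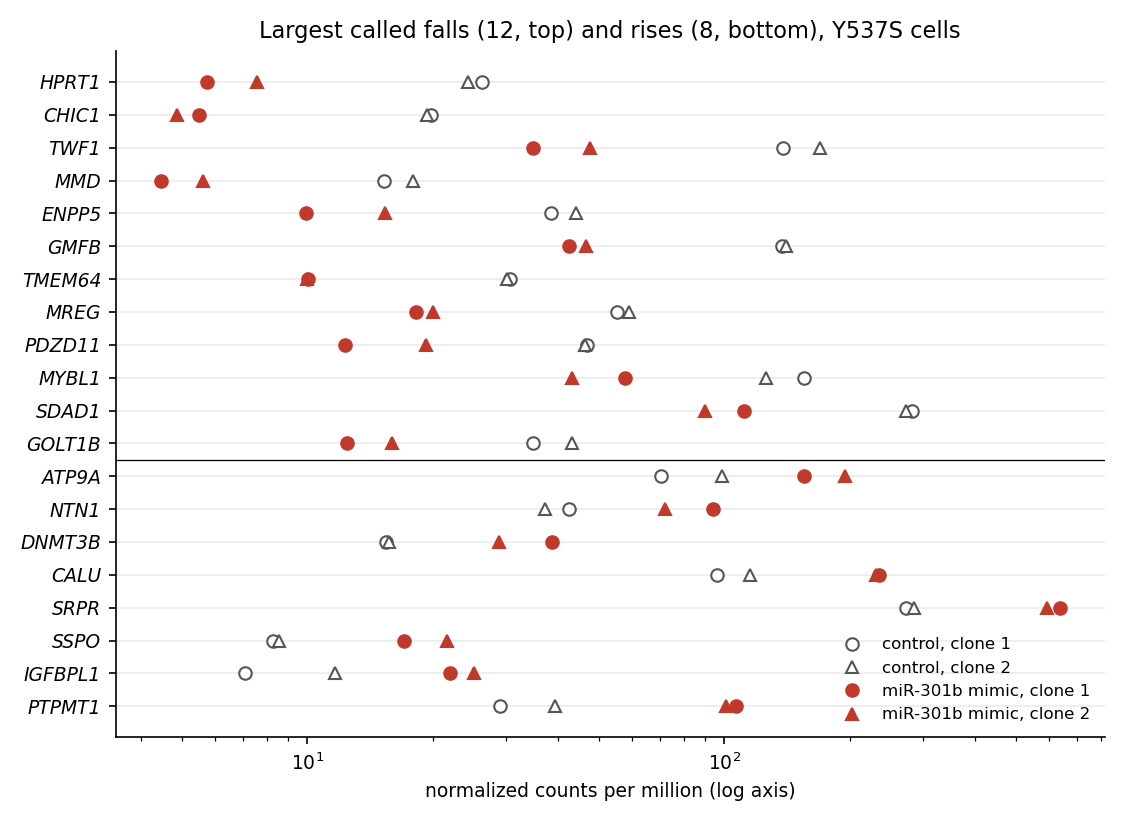
Normalized CPM (x axis, log scale) of the 12 largest falls and 8 largest rises among called genes whose mean was 3 log2 CPM or more, with 1 point per sample, open for the control and filled for the mimic. The 20 genes were chosen among those the test called, and their mimic and control points are apart. HPRT1 was at 24.3 and 26.2 CPM in the control against 5.76 and 7.56 CPM with the mimic. PTPMT1 was at 29.0 and 39.2 against 107 and 101 CPM.

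Seed matches were far more common in down-regulated than in other genes. An 8mer or 7mer-m8 match was held by 202 of the 353 down-regulated genes whose 3′UTR is annotated (57.2%), by 13 of 184 up-regulated genes (7.07%) and by 2143 of 13376 genes tested (16.0%). An 8mer was held by 20.7% of down-regulated genes and 3.28% of those tested. Down-regulated genes also had longer 3′UTRs, with a median of 2531 bases against 1148 bases in up-regulated genes and 1306 bases in all. Of the 151 down-regulated genes without such a match, 35 had a 7mer-A1 match (the last 6 bases of the site followed by A), 5 had an 8mer or 7mer-m8 in the longest annotated 3′UTR, and 22 had one before the stop codon, some of them in more than 1 of these places. In 99 none of these was found. A 7mer-A1 was held by 23.2% of these 151 genes and by 4.24% of all 11233 tested genes with a 3′UTR but no 8mer or 7mer-m8, and a match before the stop codon by 14.6% and 7.75%.

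The size of the change was graded by the best match. Genes with an 8mer (438) had a median log2 fold change of -0.27 and were called down in 16.7% of cases and up in 0.457%. Genes whose best match was a 7mer-m8 (1705) had a median of -0.12 and were called down in 7.57%, and those with a 7mer-A1 (476) had a median of -0.10 and were called down in 7.35%. The median was -0.01 for the 2735 genes with only a 6-base match and 0.06 for the 8022 genes with none, which were called down in 0.698% and up in 1.73%. The clones were alike: the medians of the 8mer class were -0.28 and -0.27 in clones 1 and 2, and those of the class with none 0.05 and 0.06. The order remained in the paired fit after GC correction, at smaller size, with medians of -0.16 for 8mers, -0.07 for 7mer-m8, -0.06 for 7mer-A1 and 0.00 for 6-base matches and for none.

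**Figure D3:**
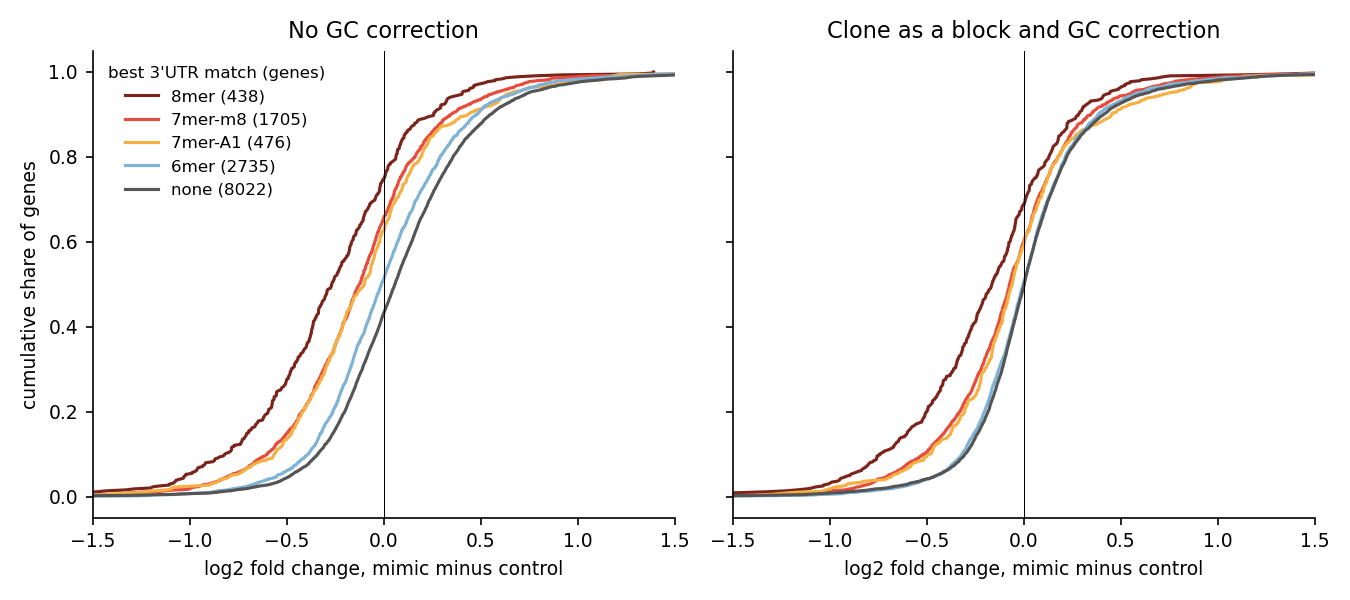
Cumulative share of genes (y axis) by log2 fold change (x axis, shown from -1.5 to 1.5) for each class of best 3′UTR match, in the fit without correction (left) and in the paired fit after GC correction (right). The curve of the 438 genes with an 8mer lies farthest left, with a median of -0.27 (left) and -0.16 (right), and that of the 8022 genes without a match has medians of 0.06 and 0.00.

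The change was also described by the number of 8mer and 7mer-m8 matches. The median log2 fold change was 0.03 in 11233 genes with a 3′UTR and none, -0.14 in 1732 genes with 1, -0.21 in 325 with 2, -0.36 in 68 with 3 and -0.41 in 18 with 4 or more. In the paired fit after GC correction the medians were 0.00, -0.08, -0.08, -0.19 and -0.28, with no step between genes with 1 and with 2 matches. The shares called down were 1.34%, 7.62%, 14.2%, 23.5% and 44.4%. Median 3′UTR length climbed from 1060 bases with none to 11428 bases with 4 or more, and median GC content fell from 50.2% to 39.7%. RPS6KA5, a kinase that phosphorylates histone H3 and CREB, had 11 matches in an annotated 3′UTR of 24213 bases and fell from 28.2 and 28.8 CPM to 13.2 and 14.7 CPM (-1.03, SE 0.13). Among the genes that followed it, each with 4 matches, the falls on the log2 scale were by 1.48 (MYBL1, a transcription factor of the MYB family), 1.33 (FBXO28), 0.97 (MIER1, and 0.61 in the paired fit after GC correction), 0.74 (PRRG4) and 0.58 (USP8).

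Other comparisons held either 3′UTR length or GC content closer, but not both at once. Among genes with a single 8mer and no 7mer-m8, the 98 with the shortest 3′UTRs (121 to 1923 bases) had a median log2 fold change of -0.32, against 0.07 in 5970 genes with no match in the same range of lengths. In the middle length class (1931 to 3863 bases) the medians were -0.29 and -0.01, and in the longest (3868 to 11378 bases) -0.18 and 0.00. In the shortest class the groups still differed in median GC content (45.6% with the 8mer, 52.9% without) and 3′UTR length (1118 and 611.5 bases). In the paired fit after GC correction the medians were -0.32 and -0.01 in the shortest class, -0.16 and 0.06 in the middle and -0.03 and 0.09 in the longest. In each of 10 bins of GC content, genes with an 8mer or 7mer-m8 match had a lower median than genes without, by 0.0548 to 0.129 on the log2 scale. Genes with an 8mer also had a lower median than genes with no match in WT cells (-0.24 against 0.05) and in D538G cells (-0.26 against 0.06), which had their own control samples.

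For the miR-331 mimic against the same Y537S control samples, the genes with a miR-301b 8mer had a median log2 fold change of -0.20 and those with none 0.10. Some genes named in other paragraphs fell with it by a similar amount or more than with miR-301b, among them MIER1 (-0.87), RPA2 (-0.62), TSC1 (-0.58) and ATXN1 (-0.46). Others changed little, such as HPRT1 (-0.25), RAB5A (-0.28) and RAB4A (-0.03). Set directly against the miR-331 mimic, without the shared control, the miR-301b mimic changed 3629 of 15019 genes (24.2%), 1777 up and 1852 down (edgeR quasi-likelihood test). The median difference (miR-301b minus miR-331) was -0.11 for 8mers, -0.04 for 7mer-m8, 0.01 for 7mer-A1, 0.03 for 6-base matches and -0.02 for genes with none. Here the grading by best match did not hold below 7mer-m8. After the GC correction the medians in the same order were -0.23, -0.13, -0.09, -0.04 and -0.06. The 5 genes with the smallest P-values were PABPC1L (3.69, SE 0.16), KIFC2 (2.37, SE 0.11), MALAT1 (3.12, SE 0.14), PDXDC2P (3.18, SE 0.18) and LOC146880 (3.04, SE 0.16), with adjusted P-values of 0.00121 to 0.00216 (edgeR quasi-likelihood test). MALAT1, a nuclear long noncoding RNA, was at 8918 and 11578 CPM in the control, 8212 and 9271 CPM with miR-301b, and 880 and 1109 CPM with miR-331 (CPM normalized over the 14 samples of all 3 genotypes). These 5 genes were therefore low with miR-331 and differed little between miR-301b and the control, where their log2 fold changes lay between -0.25 and 0.23. For 2 of them the sign turned: in the paired fit after GC correction KIFC2 was at -0.18 (adjusted P = 0.00355, edgeR quasi-likelihood test) and PABPC1L at -0.20 (adjusted P = 0.0183).

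The proteins that make miRNAs and carry out silencing include the nuclease DICER1, the Argonautes and the deadenylation and decapping factors that degrade bound messengers. The counts of this and the following lists are set against all genes tested, of which 2.34% fell and 1.23% rose, 20% and 18.4% in the paired fit, and 16.8% and 12.5% in the paired fit after GC correction. Of 27 tested genes of this list, 6 fell and 0 rose (22.2% down), in the paired fit 19 fell and 3 rose, and after GC correction 15 fell and 3 rose. The median log2 fold change was -0.29, against 0.01 over all genes, and -0.20 after GC correction in the paired fit. By clone the median was -0.32 in clone 1 and -0.29 in clone 2, against 0.00 in each over all genes. DICER1 was at 312 and 310 CPM in the control and at 123 and 136 CPM with the mimic (-1.26, SE 0.09), and its 3′UTR holds 3 7mer-m8 sites. CNOT6, a deadenylase subunit of the CCR4-NOT complex, fell from 178 and 158 CPM to 64.8 and 68.9 CPM (-1.33, SE 0.10). The decapping activator DDX6 (-0.61), the decapping enzyme DCP2 (-0.55, and -0.29 in the paired fit after GC correction), the deadenylase subunit PAN3 (-0.65) and AGO1 (-0.57) also fell, all with at least 1 8mer or 7mer-m8. Adjusted P-values of the 6 ranged from 0.0193 to 0.0495 (edgeR quasi-likelihood test). With the miR-331 mimic DCP2 fell further (-1.05). DICER1 was then at -0.61, PAN3 at -0.47, CNOT6 at -0.37, DDX6 at -0.15 and AGO1 at 0.37. Set directly against miR-331, DCP2 was higher with miR-301b (0.53, SE 0.10; adjusted P = 0.0175, edgeR quasi-likelihood test). In WT cells 9 members of the list fell and 1 rose, and in D538G cells 7 fell and 1 rose, where 3.87% and 6.49% of all genes tested fell.

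A list of 26 genes published as targets of the miR-130/miR-301 family had 22 tested members, of which 19 held an 8mer or 7mer-m8. It was written with results of these data known and gives no independent evidence of its direction. In it 5 genes fell and 0 rose, with 14 falling and 4 rising in the paired fit, 11 and 4 after GC correction, and a median of -0.33. Those that fell included DICER1, DDX6, the polyglutamine protein ataxin-1 (ATXN1, -0.55) and TSC1 (-0.48), a subunit of the complex that restrains mTORC1. TSC1 was at 98.0 and 94.8 CPM in the control and at 68.9 and 69.2 CPM with the mimic.

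ESR1 itself was at 260 and 173 CPM in control clones 1 and 2 and at 133 and 90.9 CPM with the mimic. Each clone was lower by a similar amount, -0.97 and -0.93 on the log2 scale, but the control level differed between the clones, so that the unpaired fit gave -0.96 (SE 0.25; adjusted P = 0.092, edgeR quasi-likelihood test) and did not call it. The paired fit called it (adjusted P = 6.65e-34). ESR1 was called down in WT (-0.70, SE 0.08) and D538G cells (-0.87, SE 0.12), and its 3′UTR holds the 2 sites printed above. Estrogen-response genes, which ER activates, gave 5 falls and 0 rises among 31 tested, with a median of -0.35, and 17 falls and 1 rise in the paired fit, with or without the GC correction. Carbonic anhydrase CA12 fell from 796 and 611 CPM to 339 and 319 CPM (-1.10, SE 0.14), and the ER coactivator GREB1 from 377 and 327 CPM to 237 and 215 CPM (-0.64, SE 0.11). The chaperone FKBP4 (-0.53), the progesterone receptor PGR (-0.47) and the chemokine CXCL12 (-1.29) fell as well, and of the 5 only PGR held an 8mer or 7mer-m8 in the 3′UTR, and CXCL12 held a 7mer-A1. The median of the list was -0.11 in WT and -0.28 in D538G cells, with 3 and 9 falls. Among 16 ER and luminal transcription factors, PGR fell and the ETS factor SPDEF rose (0.70, SE 0.08, and 0.34 in the paired fit after GC correction). The paired fit called 7 up and 4 down in that list, 6 and 4 after GC correction, and the median was 0.03.

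The PI3K pathway passes growth factor signals to AKT and mTOR. Of its 31 tested genes 3 fell and 2 rose, with 11 falling and 9 rising in the paired fit and 6 of each after GC correction, and the median was 0.12, or 0.01 after that correction. PIK3CB, a catalytic subunit of PI3K, was at 174 and 163 CPM in the control and at 88.0 and 90.2 CPM with the mimic (-0.92, SE 0.09; adjusted P = 0.0214, edgeR quasi-likelihood test). Its 3′UTR holds a 7mer-m8 that overlaps the 8mer printed above. PHLPP2, a phosphatase that removes an activating phosphate from AKT, fell from 88.0 and 94.8 CPM to 41.4 and 45.9 CPM (-1.06, SE 0.10) and had a 7mer-A1 but no 8mer or 7mer-m8 match in the 3′UTR. TSC1 fell as given above. The regulatory subunit PIK3R2 (0.56) and the mTORC1 subunit RPTOR (0.64) rose, with values of 0.22 and 0.39 in the paired fit after GC correction. In the protein kinase C and D family, 0 of 9 tested genes passed the edgeR test, 3 had an unadjusted P-value under 0.05, DESeq2 called 0 up and 1 down, the paired fit called 2 up and 2 down (2 and 3 after GC correction), and the median was 0.17. PRKD3 was at 61.8 and 47 CPM in the control and 39.3 and 31.8 CPM with the mimic. Its log2 fold change was -0.61 (SE 0.17; adjusted P = 0.107, edgeR quasi-likelihood test), which the paired fit called (adjusted P = 2.96e-10). PRKD3 was called down in WT (-0.43) and D538G cells (-0.59).

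Among 33 receptor tyrosine kinase and RAS genes 2 rose and 1 fell, which is 3.03% down and near the 2.34% of all genes. The paired fit called 10 up and 3 down, 9 and 6 after GC correction, and the median was 0.08. ERBB2, the HER2 receptor, was at 319 and 332 CPM in the control and at 464 and 506 CPM with the mimic (0.58, SE 0.08; adjusted P = 0.0311, edgeR quasi-likelihood test). FGFR3 rose by 0.65, and SOS2, a RAS exchange factor with 2 sites, fell by 0.49. In the paired fit after GC correction ERBB2 was at 0.31, FGFR3 at 0.35 and SOS2 at -0.32. Of 22 TGF-beta and BMP receptors and SMADs, the type I receptor TGFBR1 fell from 153 and 117 CPM to 70.2 and 56.7 CPM (-1.09, SE 0.17) and the activin receptor ACVR1B rose (0.72, SE 0.09). With the miR-331 mimic TGFBR1 fell as well (-1.28), and the direct difference was 0.22 (adjusted P = 0.285, edgeR quasi-likelihood test). ACVR1B held a 7mer-m8 match, so that a match did not go with a fall in every gene. With 1 gene down, the share of that list was 4.55%. The paired fit called 8 up and 5 down in it, 11 and 4 after GC correction, and the median was 0.05. Of 38 genes of cell-matrix adhesion and motility, the metalloprotease ADAM9 fell from 406 and 385 CPM to 131 and 161 CPM (-1.44, SE 0.12) and the integrin subunit ITGA3 rose (0.59, and 0.32 in the paired fit after GC correction). The 1 fall is 2.63% of the list, near the 2.34% of all genes. The paired fit called 14 up and 8 down there, but 8 up and 9 down after GC correction, and the median went from 0.06 to 0.02.

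Genes of mitosis and G2/M gave 4 falls and 0 rises among 50 tested (8% down, against 2.34% of all genes), 37 falls and 2 rises in the paired fit, and a median of -0.29. The kinesin KIF14, which acts in cytokinesis, was at 104 and 103 CPM in the control and at 57.6 and 65.5 CPM with the mimic (-0.75, SE 0.10; adjusted P = 0.027, edgeR quasi-likelihood test). RACGAP1 (-0.60, SE 0.08), a partner of the central spindle, cyclin A2 (CCNA2, -0.60, SE 0.11) and the hyaluronan receptor HMMR (-0.45, SE 0.08) fell as well. With the miR-331 mimic KIF14 was at -0.96, and RACGAP1 and CCNA2 were each at -0.09. HMMR was at 81.1 and 85.6 CPM with miR-331, against 165 and 159 CPM in the control (normalized over all 3 genotypes). CDK1, the kinase that drives entry into mitosis, was at 331 and 313 CPM in the control and at 265 and 246 CPM with the mimic, which is -0.33 on the log2 scale (SE 0.09; adjusted P = 0.0927, edgeR quasi-likelihood test). The GC content of its transcript is 35.4%, and in the paired fit after GC correction its log2 fold change was -0.02 (adjusted P = 0.82), that of HMMR was -0.16 and that of KIF14 was -0.52. With that correction the paired fit called 29 of the 50 down and 1 up, and the median was -0.16. In the list 3 of 50 genes held an 8mer or 7mer-m8. The median was -0.05 in WT and -0.31 in D538G cells. For DNA replication 1 of 44 genes fell (RPA2, -0.65), which is 2.27% and near the 2.34% of all genes, with a median of -0.07, and for G1 cyclins, CDKs and inhibitors 1 of 29 (MYC, -0.85, from 26.4 and 26.1 CPM to 14.1 and 15.0 CPM), which is 3.45%, with a median of -0.14. The paired fit called 14 down and 4 up in the former (13 and 2 after GC correction) and 10 down and 8 up in the latter (7 and 4).

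Actin regulators gave 6 falls and 0 rises among 40 tested genes, 18 falls and 7 rises in the paired fit, and 17 and 3 after GC correction, with a median of -0.13. Beside TWF1 and GMFB, the GTPase CDC42 fell from 286 and 289 CPM to 149 and 166 CPM (-0.87, SE 0.09). WASL (-0.84, SE 0.09), which links CDC42 to the Arp2/3 complex, the Arp2/3 subunit ARPC1A (-0.60) and the kinase ROCK2 (-0.60) fell too. ROCK2 held a 7mer-A1, and ARPC1A an 8mer only in its longest annotated 3′UTR. With the miR-331 mimic ROCK2 was at -0.83, WASL at -0.35, CDC42 at -0.05 and ARPC1A at 0.24. Among 59 RAB GTPases, sorting nexins and ESCRT genes 5 fell and 1 rose, with 27 falling and 11 rising in the paired fit. After the GC correction the paired fit called 14 down and 9 up, and the median went from -0.20 to -0.06. RAB5A, which organizes early endosomes, fell from 82.3 and 85.1 CPM to 31.8 and 41.1 CPM (-1.20, SE 0.14). RAB12 (-1.09), RAB4A (-0.84), SNX5 (-0.58) and RAB1A (-0.54, and -0.31 in the paired fit after GC correction) fell, and RAB3D rose (0.53). Of 45 ubiquitin-specific proteases 5 fell and 0 rose, with 15 falling and 8 rising in the paired fit and 15 and 10 after GC correction, where the median went from -0.07 to 0.04. They were USP31 (-0.85), USP33 (-0.67), USP37 (-0.62), USP8 (-0.58) and USP47 (-0.44), each with at least 1 match. With the miR-331 mimic USP37 was at -0.53, USP33 at -0.52, USP8 at -0.46 and USP31 at -0.32. Set directly against miR-331, USP31 passed (adjusted P = 0.031, edgeR quasi-likelihood test), and USP33, USP37 and USP8 did not, with or without the block. USP47 was at 91.4 and 92.1 CPM with miR-301b and at 86.6 and 89.0 CPM with miR-331 (normalized over all 3 genotypes).

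Genes of cholesterol metabolism gave 3 falls and 2 rises among 30 tested genes, 9 of each in the paired fit, and 8 falls and 6 rises after GC correction, with a median of -0.04. The sterol enzymes SC5D (262 and 286 CPM in the control, 174 and 176 CPM with the mimic; -0.65, SE 0.09) and MSMO1 (-0.69, SE 0.10) were among those that fell. With the miR-331 mimic SC5D was at -0.86 and MSMO1 at -0.71. The sterol sensor SCAP (0.51) and the transcription factor SREBF1 (0.55) rose. SC5D and MSMO1 had GC contents of 36.9% and 37.4%, and their values in the paired fit after GC correction were -0.38 and -0.44. SCAP and SREBF1, at 61.7% and 63.2% GC, both had 0.22 there.

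**Figure D4:**
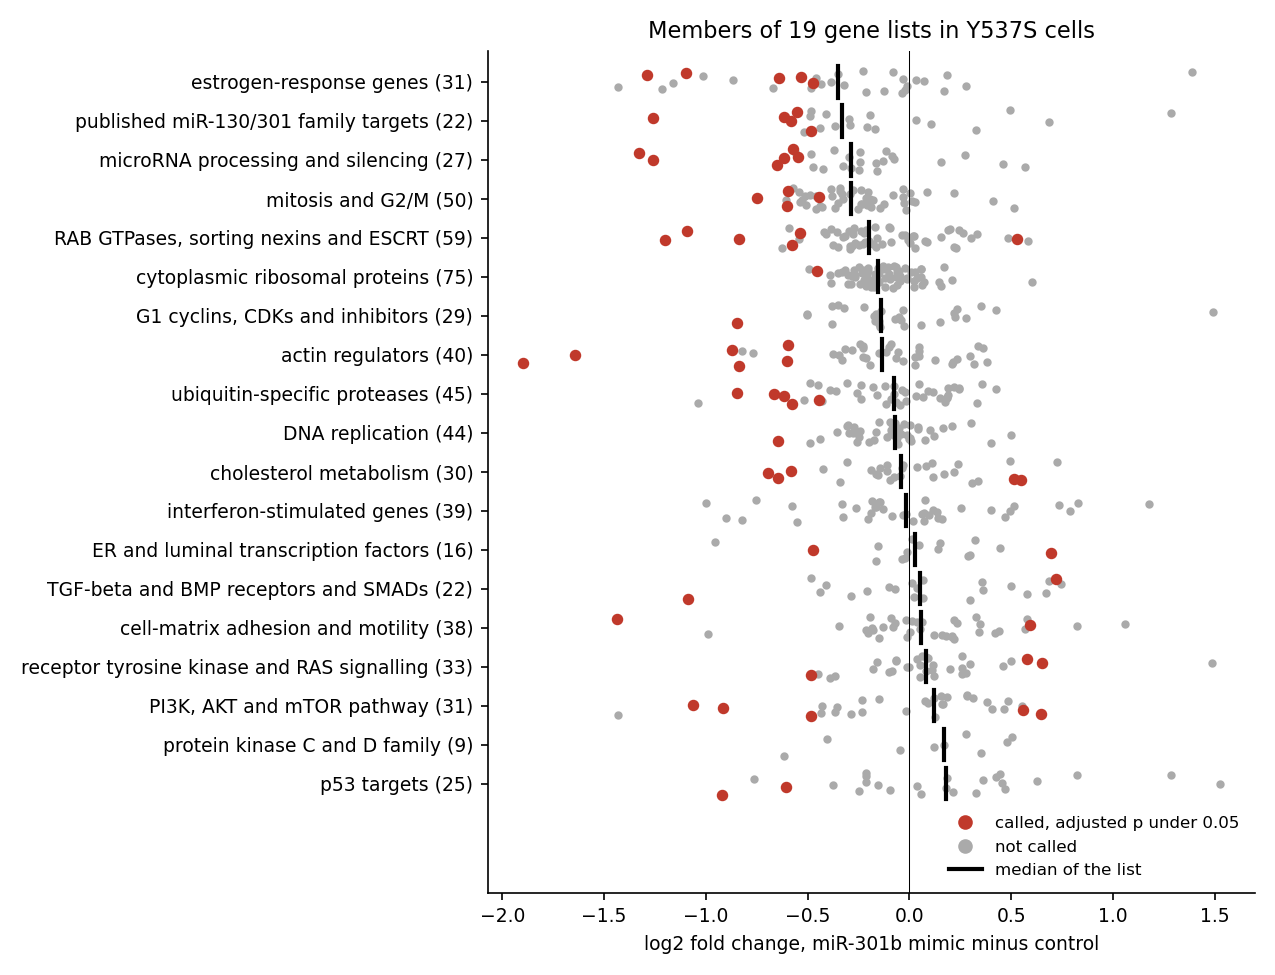
Log2 fold change (x axis, mimic minus control) of each tested member of 19 gene lists (rows, number of members in parentheses), with called genes in red, other genes in gray and the median of each list as a black bar. Medians range from -0.35 for estrogen-response genes to 0.18 for p53 targets, against 0.01 for all genes tested.

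The mimic had been given to WT and D538G cells too, with control samples of their own. It altered 1284 of 15113 genes tested in WT cells (8.5%) and 1750 of 14845 in D538G cells (11.8%, edgeR quasi-likelihood test). Of the 355 genes down-regulated in Y537S cells, 353 were lower in WT cells, against 50.2% of all genes, and 232 were called down there. These are 65.4% of the Y537S list and 39.7% of the 585 genes called down in WT cells. In D538G cells all 355 were lower, against 49.4% of all genes, and 332 were called down, which are 93.5% of the Y537S list and 34.4% of the 964 called down in D538G cells. Of the 186 up-regulated genes, 185 were higher in WT cells, against 49.8% of all genes, and 137 were called up. In D538G cells 186 were higher, against 50.6% of all genes, and 165 were called up. Over all genes tested, 3.87% were called down in WT and 6.49% in D538G cells, and 699 and 786 genes were called up. The slopes with GC content given above were present in all 3 genotypes.

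The difference of the response between Y537S and WT cells was tested in 1 fit of the 8 samples, and 1 of 15814 genes (0.00632%) passed (343 had an unadjusted P-value under 0.05). This was SDAD1, a factor of ribosome biogenesis on chromosome 4 (76862103 to 76912115, GRCh37, minus strand). Its level, normalized over all 3 genotypes, was 276 and 263 CPM in Y537S controls and 111 and 88.7 CPM with the mimic. In WT clones it was 54.9 and 57.9 CPM in the control and 153 and 113 CPM with the mimic, so that the direction was the opposite. In D538G clones it was 237 and 176 CPM in the control and 106 and 104 CPM with the mimic. The log2 response in Y537S cells minus that in WT cells was -2.68 (SE 0.21; adjusted P = 0.0063, edgeR quasi-likelihood test), and without either of the WT control samples 0 genes were called. SDAD1 had no 8mer, 7mer-m8 or 7mer-A1 in its 3′UTR and no 8mer or 7mer-m8 before its stop codon. With the miR-331 mimic it was at 252 and 257 CPM in Y537S cells.

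With the clone as a block the same comparison called 32 genes, 20 with a higher and 12 with a lower response in Y537S cells. Between Y537S and D538G cells 0 of 15581 genes (0%) passed the edgeR quasi-likelihood test, 180 had an unadjusted P-value under 0.05, and DESeq2 called 1. The block called 3, of which ADAM9 (-0.62, SE 0.10; adjusted P = 0.0046) was well counted and VARS and CT45A7, named after their values were seen, had mean levels of 0.12 and -0.38 log2 CPM. A P-value that misses the threshold does not show that the responses were alike.

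**Figure D5:**
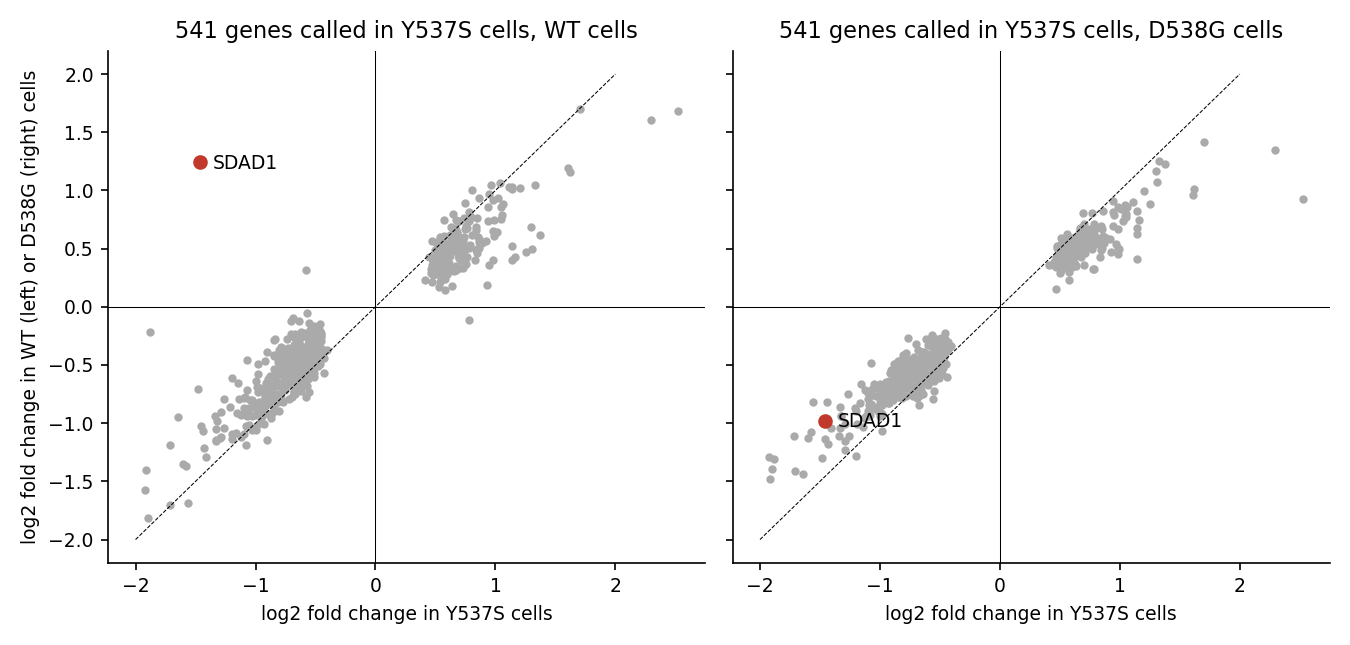
Log2 fold change (mimic minus control) of the 541 genes called in Y537S cells (x axis) against that in WT (left) and D538G cells (right, y axis), with the line of equal change dashed. All but 2 of the 355 down-regulated and 1 of the 186 up-regulated genes share the direction in WT cells, and SDAD1, in red, lies apart at -1.46 in Y537S and 1.24 in WT cells.

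The labelled cell type was checked against marker genes. All 9 luminal markers (KRT8, KRT18, KRT19, EPCAM, CDH1, ESR1, GATA3, FOXA1 and PGR) exceeded 1 CPM, and their summed level was 11074 to 11099 CPM in the control and 10346 to 11462 CPM with the mimic. Of 5 basal markers only ACTA2 exceeded 1 CPM, with sums of 3.29 to 6.49 and 5.90 to 6.31 CPM. Of 6 fibroblast markers COL1A1, VIM and LUM did and COL1A2 was at 0, with sums of 58.8 to 69.5 CPM in the control and 81.5 to 84.2 CPM with the mimic. Of 7 leukocyte and endothelial markers only CD68 did and CDH5 was at 0, with sums of 2.48 to 2.73 and 3.32 to 4.02 CPM. The part of these differences in the results was not tested. In bulk samples fewer cells of a type and less RNA per cell cannot be told apart, and mature miR-301b was not measured.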

How the data were processed

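Poly-A libraries were made with a stranded kit and sequenced on an Illumina NovaSeq. The authors aligned reads to hg19 with HISAT2, used SAMtools, and counted reads per gene on UCSC Known Genes with featureCounts of Subread; what they deposited is a table of raw counts, without normalization. Tool versions, the strand setting and the treatment of multi-mapped reads are not given in the sources used here, so overlapping genes and near-identical copies are uncertain. From the counts, edgeR 4.0.16 in R 4.3.3 was used here with TMM, filterByExpr, the quasi-likelihood F test and Benjamini-Hochberg adjustment at 0.05, on the samples of each comparison. The clone was left out of the main model, as in the study, and entered as a block in the paired fit. Y537S clones 1 and 2 are the same cell lines in both conditions, and the clone difference correlated across genes between mimic and control samples (0.56, a description). SE is the size of the log2 fold change divided by the square root of F, and CPM are TMM-normalized. The GC correction removed each library's lowess trend (span 0.3). DESeq2 1.42.0, its size factors, no filter, all Y537S samples in 1 fit and left-out samples were alternatives. Of 26364 symbols 22494 matched GENCODE directly and 1363 by a RefSeq synonym; 18762 had a 3′UTR. Columns of WT and D538G clones carry names that the labels do not give, and were assigned to their group. Some labels transpose the digits of Y537S; titles and headers give Y537S. Scripts used Python 3.11.15, pandas 2.3.3, numpy 2.4.6 and matplotlib 3.10.9, and were tested on simulated data.

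The comparison and the gene lists were chosen with earlier results of these data known. Genes named are ESR1, CDK1, KIF14, PIK3CB and PRKD3; the 12 largest falls and 8 largest rises among called genes of mean level 3 log2 CPM or more that moved alike in both clones; up to 4 members per list with the smallest P-value (those under 0.05); the 8 down-regulated genes with the most matches; and up to 5 genes per difference test. CXCL12, RPTOR, AGO1, PAN3, ARPC1A, ROCK2, RAB1A, RAB3D, SREBF1 and USP47 complete the called members of lists and were named after their values were seen. Some genes that meet these rules are not reported here. No set test was run.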

Additional observations from a re-analysis of the deposited data

Results flagged for a closer look

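The response of SDAD1 to the miR-301b mimic differed between Y537S and WT cells by -2.684 on the log2 scale, by the test of the difference itself (adjusted P = 0.0063, edgeR quasi-likelihood test). It fell in both Y537S clones and was higher in both WT clones. WT controls, at 54.9 and 57.9 CPM, were below the Y537S controls at 276 and 263 CPM.

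FBXO32, a ubiquitin ligase subunit, was higher with the mimic in both Y537S clones (143 and 173 CPM in the control, 202 and 230 CPM with the mimic) and lower in both WT clones (488 and 633 against 408 and 577 CPM). The fitted responses differed by 0.6165 on the log2 scale, which passed the test of the difference only with the clone as a block (adjusted P = 0.000254, edgeR quasi-likelihood test). MAN1A1, a Golgi mannosidase, was lower in both Y537S clones (48.3 and 43.9 against 31 and 31.9 CPM) and higher in both WT clones (24.1 and 23.2 against 31.9 and 27.2 CPM), a difference of -0.8953, which also passed only with the block (adjusted P = 0.0060). Both were named after their values were seen. Groups of 2 samples were too small to look for single samples far from the rest.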

How the results depend on the processing

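Where 541 genes were called in Y537S cells, DESeq2 called 1738, all Y537S samples in 1 fit 1430, the clone block (replicate block) 5819, the block with GC correction 4428 and GC correction without the block 24. At an adjusted P under 0.01 edgeR called 0, with 3510 at an unadjusted P under 0.05. DESeq2 size factors (519) and no filter on low counts (758) stayed within 1.5 times. Leaving out 1 sample gave 19 to 296: 19 without control clone 1, 179 without control clone 2, 238 without mimic clone 1 and 296 without mimic clone 2, the lone sample then being assumed to vary like the others. For the response in Y537S minus WT cells (1 gene) the block called 32 and the block with GC correction 208. Leaving out 1 sample gave 0 to 2 genes, with 0 without either WT control and 2 without Y537S control clone 2. For Y537S minus D538G cells (0 genes) DESeq2 called 1, no filter 2, the block 3 and the block with GC correction 34, and leaving out 1 sample gave 0 to 1, with 1 without Y537S control clone 2. Against the miR-331 mimic (3629 genes) the block called 7614 and the block with GC correction 8177, and leaving out 1 sample gave 1560 to 3656: 1560 without miR-301b clone 1, 1898 without miR-301b clone 2 and 1773 without miR-331 clone 1. The median log2 fold change of genes with an 8mer or 7mer-m8 match minus that of other genes with a 3′UTR was -0.189, and was -0.185 with the block, -0.0839 with GC correction, -0.0824 with both and -0.173 with the longest annotated 3′UTR. It was -0.195 without clone 1 and -0.19 without clone 2. The cause of these changes was not tested. Of the differences tested for named genes none reversed, while against the control KIFC2 went from 0.23 to -0.18 and PABPC1L from 0.02 to -0.20 in the paired fit after GC correction. Of 113 results for named genes the block left 85 on their side of the threshold and brought 28 past it, GC correction alone took 68 below it, and leaving out control clone 1 took 67 of 108 below it. With 1 library per clone and 2 clones, small changes could not be told from the spread between clones.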

Other observations

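Cytoplasmic ribosomal proteins, of which 75 were tested, gave 1 fall (RPL26, 387 and 379 CPM in the control and 290 and 268 CPM with the mimic) and 0 rises. This is 1.33% down, below the 2.34% of all genes, and the median log2 fold change was -0.16. The paired fit called 40 down and 5 up, and 50 down and 1 up after the GC correction. RPL22 (-0.50), RPL38 (-0.39) and RPS24 (-0.38) had the next smallest P-values and adjusted P-values of 0.0547 to 0.0831 (edgeR quasi-likelihood test). In WT and D538G cells the medians were -0.09 and -0.04. These genes have many processed copies in the genome, and how the counting treated reads that map to several places is not given in the sources used here.

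Among 25 p53 targets tested, ZMAT3, which has 2 8mer sites, fell from 57.2 and 60.1 CPM to 30.5 and 31.4 CPM (-0.92, SE 0.10) and the ribonucleotide reductase subunit RRM2B fell by 0.61, with a median of 0.18 over the list and 10 genes up and 6 down in the paired fit. After GC correction the paired fit called 6 up and 5 down, RRM2B was at -0.28, and the median of the list was 0.05. None of 39 interferon-stimulated genes passed the edgeR quasi-likelihood test, 1 had an unadjusted P-value under 0.05, DESeq2 called 1 up and 0 down, and the paired fit called 3 up and 3 down (4 and 1 after GC correction). Their median was 0.33 in clone 1 and -0.37 in clone 2. IFI35 had the smallest P-value of the list and was at 10.1 and 10.6 CPM in the control and 18.3 and 16.1 CPM with the mimic (adjusted P = 0.0582).

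In the paired test of the response between Y537S and WT cells, DDIT4, an inhibitor of mTORC1, had log2 fold changes of 1.25 in Y537S and 0.34 in WT cells (difference 0.91, SE 0.10; adjusted P = 0.00041, edgeR quasi-likelihood test). GREB1 had -0.64 and -0.12 (difference -0.50, SE 0.07), and MYBL1 had -1.48 and -0.71 (difference -0.77, SE 0.11), both with an adjusted P of 0.0060. None of these passed without the block, and DDIT4 was named after its values were seen.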
